A study of Homo sapiens with 6 samples.

Results

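Galectins are lectins that bind β-galactosides on glycoproteins and glycolipids, and 5 of the 6 genes described here belong to this family (LGALS1, LGALS3, LGALS8, LGALS9 and LGALSL). The sixth, LGALS3BP, encodes a secreted glycoprotein that binds galectin-3 and holds no galectin fold of its own. The genes were chosen by symbol and found in the deposited count table by Entrez identifier. Of the 6 genes, 5 were among the 12703 genes of the table. LGALS9 was not among them and was not analysed here, and none of 12 further galectin genes (LGALS2, LGALS4, LGALS7, LGALS7B, LGALS9B, LGALS9C, LGALS12, LGALS13, LGALS14, LGALS16, CLC and GRIFIN) was among them either.

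RNA was sequenced from PC3, an established line grown from a bone metastasis of prostate cancer. The 3 control libraries came from PC3 lines carrying negative-control lentiviral particles, and the 3 GCNT1 overexpressing (GCNT1 OE) libraries came from PC3 lines carrying lentiviral particles with a GCNT1 open reading frame. All lines were stably transduced, and neither the labels nor the methods say how many clones a line holds. The labels call the libraries biological replicates, so the p-values measure the spread between these lines or cultures. GCNT1, the enzyme that adds the core 2 branch to O-glycans, was found with 9, 13 and 8 reads in controls and with 13, 16 and 35 reads in GCNT1 OE cells. On the log2 scale the groups differed by 0.98 with a standard error (SE) of 0.37 (edgeR adjusted p = 0.0362), and DESeq2 gave an adjusted p of 0.0821. Without GCNT1 OE replicate 3 the difference was 0.49 (edgeR adjusted p = 0.269), and without control replicate 1 or 3 the adjusted p was 0.0920 or 0.0944. The counts do not tell the introduced open reading frame from the cells' own transcript.

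Galectins are made without a signal peptide, leave the cell by an unconventional route and cross-link glycans at the cell surface and in the matrix. The chains they favour carry N-acetyllactosamine, which is built on branched N-glycans and on core 2 O-glycans, and sialic acid caps can block some of them. Galectin-1, the product of LGALS1, has 1 carbohydrate recognition domain and forms dimers. Galectin-3, the product of LGALS3, joins 1 such domain to a proline- and glycine-rich tail and forms oligomers. Galectin-8 has a pair of different domains in 1 chain and also marks damaged endosomes and lysosomes inside the cell. LGALSL encodes a galectin-like protein for which binding to galactosides has not been shown.

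The promoters of 3 of the genes are shown because the genes differed in direction: LGALS3 rose, LGALSL fell and LGALS3BP did not pass the test. They are RefSeq sequences of GRCh38.p14 from 250 bases before to 50 bases after the gene start, 5′ to 3′ on the gene's strand. An entry was found for 5 of the 6 genes, all but LGALS1, and those of LGALS8 and LGALS9 are not printed. The LGALS3 window (chr14:55129002-55129301, plus strand) has the GC box GGGCGG, read on either strand, in capitals.
LGALS3: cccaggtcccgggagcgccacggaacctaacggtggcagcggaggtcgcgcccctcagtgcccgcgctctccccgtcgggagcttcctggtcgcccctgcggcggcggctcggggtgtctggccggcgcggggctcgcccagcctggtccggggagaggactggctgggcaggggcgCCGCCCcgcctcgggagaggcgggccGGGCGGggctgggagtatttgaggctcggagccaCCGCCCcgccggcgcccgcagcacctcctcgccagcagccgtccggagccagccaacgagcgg
The LGALSL window (chr2:64453912-64454211, plus strand) has the E-box CACCTG, the letters bound by SNAIL and ZEB repressors, in capitals.
LGALSL: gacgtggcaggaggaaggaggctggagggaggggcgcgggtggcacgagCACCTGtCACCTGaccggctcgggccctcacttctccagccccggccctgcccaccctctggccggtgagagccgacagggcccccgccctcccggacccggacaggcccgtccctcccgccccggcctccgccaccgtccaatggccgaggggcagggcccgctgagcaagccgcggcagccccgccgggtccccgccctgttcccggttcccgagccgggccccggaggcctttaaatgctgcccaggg
The LGALS3BP window (chr17:78979874-78980173, minus strand) has the interferon response element, GAAA at both ends with any 2 bases between, in capitals.
LGALS3BP: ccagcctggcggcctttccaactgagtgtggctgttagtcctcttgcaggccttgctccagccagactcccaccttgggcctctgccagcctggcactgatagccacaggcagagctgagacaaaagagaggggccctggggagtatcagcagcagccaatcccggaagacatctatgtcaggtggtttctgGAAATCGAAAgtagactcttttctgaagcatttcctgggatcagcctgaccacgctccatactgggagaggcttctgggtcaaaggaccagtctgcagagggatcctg
The motifs searched on both strands were the GC box GGGCGG, the TATA box TATAAA, the CCAAT box, the E-box CACCTG, the AP-1 site TGANTCA and the interferon response element, and no matches overlapped one another in these 3 windows. LGALS3 held 3 GC boxes, which 45.0% of 35116 promoters of the same length held at least 1 time, and no match to the other motifs. LGALSL also held 3 GC boxes, with a CCAAT box and 2 copies of CACCTG at -201 and -194 from the start. CACCTG was found in 20.6% of all promoters and CCAAT in 34.6%. CACCTG was also found in LGALS8, 1 time in the window from chr1:236517964 and 2 times in that from chr1:236523348. It was not found in the remaining LGALS8 window. LGALS3BP held the interferon element at -58, a CCAAT box at -94 and a CACCTG at -71. The interferon element was found in 3.57% of all promoters, TATAAA in 11.5% and TGANTCA in 7.71%. The GC content was 78.3% for LGALS3, 76.3% for LGALSL and 56.7% for LGALS3BP, against a median of 58.7% over all promoters. These matches are a description of the letters in each window, and binding of a factor was not measured.

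The counts summed to between 11392213 and 13825704 per library. Trimmed mean of M-values (TMM) factors from edgeR were used to scale them to CPM (the count relative to the scaled size of its library), and edgeR's quasi-likelihood test compared GCNT1 OE cells with controls. Adjusted p values are Benjamini-Hochberg values over all 12703 genes. A gene was called where the adjusted p was under 0.05 and the absolute log2 fold change was at least 0.58, the thresholds of the study. LGALS1 was called, 1 of the 5 genes, against 19.3% of all genes called (8.28% higher and 11.1% lower). With the adjusted p alone, 3 of the 5 passed (LGALS3 higher, LGALS1 and LGALSL lower), against 57.6% of all genes (28.3% higher and 29.3% lower). The median log2 fold change was 0.10 over the 5 genes and 0.00095 over all genes. Both shares are near those of all genes.

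LGALS1 was the most abundant galectin transcript in PC3 cells and the gene that fell most among the 5. It lies on chromosome 22 of hg38, from 37675636 to 37679802 on the plus strand, and no other annotated gene overlaps it. It was measured at 697, 704 and 762 CPM in the controls and at 479, 415 and 438 CPM in GCNT1 OE cells. Every GCNT1 OE library was below every control library. The level in GCNT1 OE cells was 61.6% of that in controls (95% interval 56.6% to 67.0%; log2 fold change -0.70, SE 0.06, edgeR adjusted p = 3.01e-07). Of all genes tested, 8.73% fell by as much or more. The upper end of the interval on the log2 scale, -0.58, lies at the fold change threshold, and edgeR's glmTreat test against a log2 fold change of 0.58 gave an adjusted p of 0.0599.

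LGALS3 moved the other way. The gene lies on chromosome 14 from 55129252 to 55145430 on the plus strand, and no other annotated gene overlaps it. It was measured at 99.3, 96.1 and 105 CPM in the controls and at 148, 133 and 135 CPM in GCNT1 OE cells, so that all 3 GCNT1 OE libraries were above all 3 controls. The level rose to 138% of that in controls (95% interval 127% to 151%; log2 fold change 0.47, SE 0.06, edgeR adjusted p = 1.78e-05). The rise passed the adjusted p but not the fold change threshold, and the upper end of its interval was 0.59 on the log2 scale. Of all genes tested, 12.6% rose by as much or more.

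LGALSL, on chromosome 2 from 64454162 to 64461381 on the plus strand, was the least abundant of the 5 genes by CPM. It was measured at 22.3, 19.6 and 23.0 CPM in the controls and at 14.4, 14.8 and 15.4 CPM in GCNT1 OE cells. The groups did not overlap, and the lowest control, replicate 2, stood below both of the others. The log2 fold change was -0.54 (SE 0.09, 95% interval -0.73 to -0.35, edgeR adjusted p = 0.000169). Without control replicate 2 it was -0.61 (edgeR adjusted p = 0.000276), which is past the fold change threshold.

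LGALS8, on chromosome 1 from 236518214 to 236552981 on the plus strand, was measured at 40.1, 40.1 and 37.2 CPM in the controls and at 42.8, 46.1 and 42.3 CPM in GCNT1 OE cells. The groups did not overlap, as was the case for 62.5% of all genes, but the difference did not pass the adjusted p threshold. The log2 fold change was 0.16 (95% interval 0.02 to 0.30, edgeR adjusted p = 0.0531). With library size in place of TMM factors, which moves the median of all genes from 0.00095 to 0.0587 on the log2 scale, it was 0.22 (edgeR adjusted p = 0.0136), a shift like that of all genes. Without GCNT1 OE replicate 1 the adjusted p was 0.0458. HEATR1 overlaps LGALS8 on the opposite strand over 2095 exonic bases, LGALS8-AS1 over 425 and a further long noncoding gene over 341, and although the library kit was stranded, whether the counting used strand is not given in the sources used here. HEATR1 had 49.0 ± 3.12 CPM in controls and 43.9 ± 2.20 CPM in GCNT1 OE cells (SD, n = 3 each; log2 fold change -0.16, edgeR adjusted p = 0.0644). Without strand the reads of overlapping exons cannot be told apart, and the LGALS8 value is uncertain to that extent.

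LGALS3BP, on chromosome 17 from 78971255 to 78979923 on the minus strand, was the only one of the 5 genes whose groups overlapped, where the groups did not overlap for 62.5% of all genes. It was measured at 284, 300 and 323 CPM in the controls and at 358, 311 and 303 CPM in GCNT1 OE cells. Control replicate 3 lay above GCNT1 OE replicates 2 and 3. The log2 fold change was 0.10 (95% interval -0.04 to 0.24, edgeR adjusted p = 0.210). Without GCNT1 OE replicate 1, the highest library, it was 0.02 (adjusted p = 0.733), and with library size in place of TMM factors, with the same shift of all genes, it was 0.16 (edgeR adjusted p = 0.0472). A change of more than 1.18-fold upwards is outside the interval of the main comparison.

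**Figure D1:**
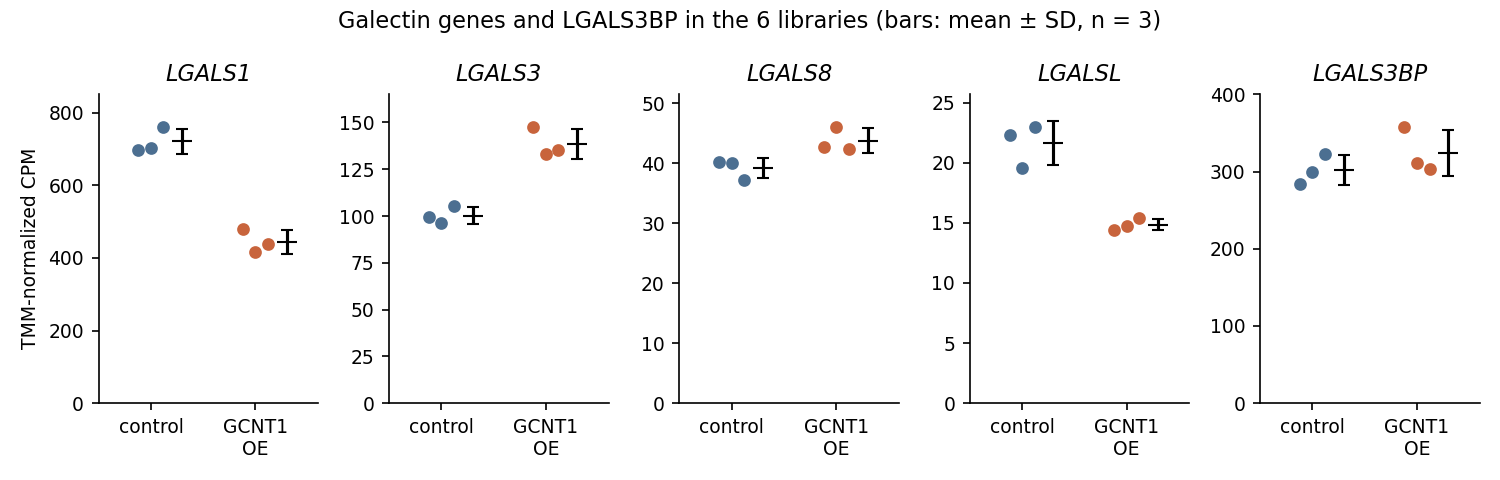
TMM-normalized CPM (vertical axes, from 0, each gene on its own scale) of the 5 genes in the 3 control and 3 GCNT1 OE libraries, with each point a library and each bar the mean ± SD. LGALS1 and LGALSL are lower and LGALS3 is higher in every GCNT1 OE library, LGALS8 is higher by a small margin, and the groups of LGALS3BP overlap.

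Levels of different genes were compared as CPM per kilobase of the canonical transcript in GENCODE 44. In controls the order was LGALS1 with 1365 ± 67.1 CPM per kilobase (SD, n = 3), LGALS3BP with 137 ± 8.80, LGALS3 with 105 ± 4.90, LGALS8 with 6.57 ± 0.28 and LGALSL with 5.61 ± 0.47. Neighbours in this order did not overlap between libraries. In GCNT1 OE cells LGALS1 had 841 ± 61.1 CPM per kilobase, and LGALS3BP with 147 ± 13.6 and LGALS3 with 145 ± 8.33 differed by less than their spread. LGALS8 had 7.34 ± 0.35 and LGALSL 3.85 ± 0.12 CPM per kilobase. These comparisons depend on the length used. With all annotated exons, LGALSL in controls had 5.50 ± 0.46 CPM per kilobase and LGALS8 4.14 ± 0.18, the reverse order. With that length LGALS3BP and LGALS3 did not overlap in GCNT1 OE cells, at 94.7 ± 8.74 and 63.0 ± 3.63 CPM per kilobase. The CPM of LGALS1 in controls was above that of 98.8% of all genes, while that of LGALSL was above 39.8%.

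The opposite moves of LGALS1 and LGALS3 changed the make-up of the galectin transcripts. A ratio of 2 genes within a library does not depend on how libraries are scaled to one another. Per kilobase, LGALS1 outnumbered LGALS3 by 12.7, 13.3 and 13.1 to 1 in the controls and by 5.88, 5.67 and 5.88 to 1 in GCNT1 OE cells. In counts without division by length the ratios were 7.02, 7.33 and 7.23 in the controls and 3.24, 3.12 and 3.24 in GCNT1 OE cells, and the difference between the groups on the log2 scale is the same with either. The groups lie far apart against a spread of 0.28 and 0.12 (SD, n = 3 each). On the log2 scale the ratio of LGALS3 to LGALS1 was higher by 1.17 in GCNT1 OE cells, with an SD of 0.03 in each group. The exact permutation test (two-sided) gave p = 0.1, the smallest value that 3 libraries against 3 allow, so the design cannot reach 0.05 by this test. Among LGALS1, LGALS3, LGALS8 and LGALSL, the share of LGALS1 was 92.1% ± 0.18 in controls and 84.3% ± 0.35 in GCNT1 OE cells (SD, n = 3 each; exact p = 0.1), a difference of -7.77 percentage points. Without division by length the difference was -12.5 points. The share of LGALS3 was 7.06% ± 0.14 and 14.5% ± 0.25. LGALS8 made up 0.44% ± 0.04 of the total in controls and 0.74% ± 0.08 in GCNT1 OE cells, and LGALSL made up 0.38% ± 0.03 and 0.39% ± 0.03. These shares move with the total, most of which is LGALS1, and LGALS8 itself did not pass the test. The summed level of the 4 galectin genes was 1482 ± 71.5 CPM per kilobase in controls and 997 ± 68.9 CPM per kilobase in GCNT1 OE cells.

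**Figure D2:**
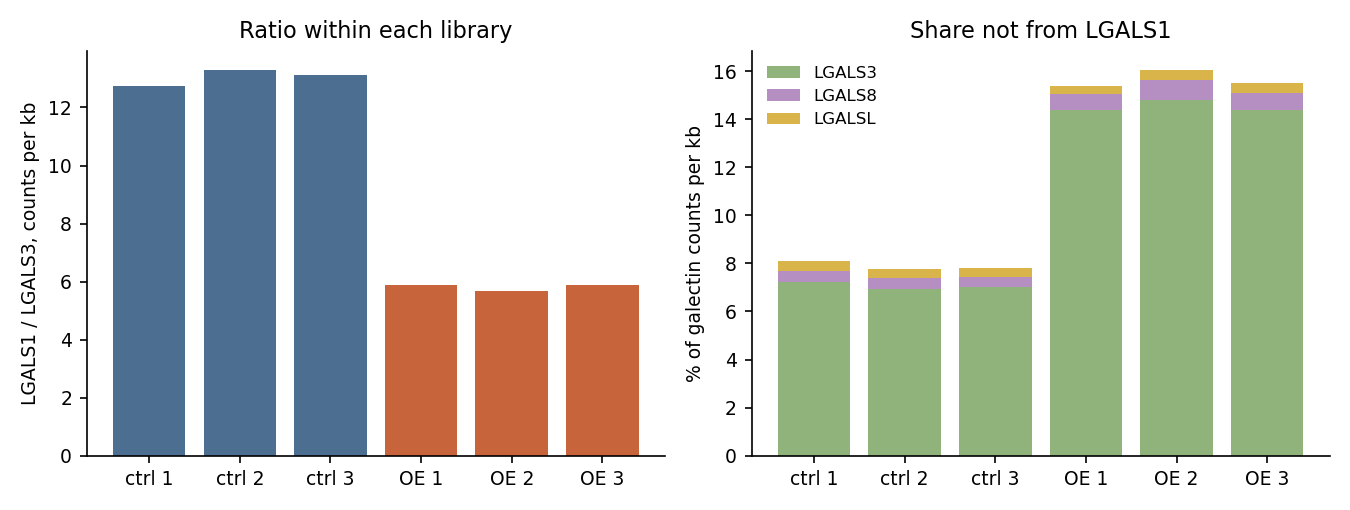
Left, the ratio of LGALS1 to LGALS3 in counts per kilobase in each library. Right, the share of galectin counts per kilobase that came from LGALS3, LGALS8 and LGALSL, with the rest from LGALS1. The ratio lies between 12.7 and 13.3 in controls and between 5.67 and 5.88 in GCNT1 OE libraries, and the green LGALS3 share rises from 7.06% to 14.5%.

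Neighbouring genes on a chromosome can move together in these data, so each gene was set beside the 50 tested genes nearest to it by midpoint. LGALSL lies in a stretch where nearly all genes were lower in GCNT1 OE cells. It is part of a run of 34 consecutive tested genes with negative log2 fold changes, spanning 9.07 Mb. Its nearest tested genes on both sides had log2 fold changes of -0.49 (VPS54), -0.64 (PELI1), -0.58 (AFTPH-DT) and -0.61 (AFTPH). Of the 20 nearest genes 16 were lower at an adjusted p under 0.05, their median log2 fold change was -0.58, and relative to it LGALSL was at 0.04. Both sets reached past the end of this run, where SPRED2, among the 20 nearest, was higher (log2 fold change 0.42), and the median of the 50 nearest genes was -0.35.

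LGALS1 also lies among genes that were mostly lower. It is part of a run of 14 consecutive tested genes with negative log2 fold changes, spanning 0.445 Mb. Of its 20 nearest genes 12 were lower at an adjusted p under 0.05, and their median was -0.25. Over the 50 nearest genes, all within 1.56 Mb, the median was -0.28 on the log2 scale, and 34 of them were lower at an adjusted p under 0.05. Relative to that median LGALS1 was at -0.42, and 10 of the 50 genes were more negative. Its neighbours SH3BP1 and TRIOBP had log2 fold changes of -0.64 and -0.66, while PDXP and NOL12, the genes on either side of it, had -0.25 and -0.07. The 289 tested genes of chromosome 22 had a median of -0.20.

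LGALS3 rose among genes of which more were lower than higher. Over the 50 nearest genes the median was -0.17 on the log2 scale, 25 of them were lower and 4 higher at an adjusted p under 0.05, and only 1 rose more than LGALS3. Relative to that median LGALS3 was at 0.63. Closer to the gene the values were nearer to 0, with a median of -0.05 over the 20 nearest genes, of which 8 were lower at an adjusted p under 0.05. The tested genes next to it upstream, MAPK1IP1L and SOCS4, had log2 fold changes of 0.07 and 0.05, neither past the threshold. The next tested gene downstream, DLGAP5, which encodes a mitotic spindle protein, had a log2 fold change of -1.05. For LGALS8 and LGALS3BP the median of the 50 nearest genes was -0.04 in each case, and over the 20 nearest genes it was -0.15 for LGALS8 and 0.18 for LGALS3BP. LGALS3BP is part of a run of 10 consecutive tested genes with positive log2 fold changes. C1QTNF1, close to LGALS3BP, had a log2 fold change of 2.15, and CANT1, the next gene, had 0.47. The neighbourhood medians carry no test against the members, and their part in the members' changes was not tested.

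**Figure D3:**
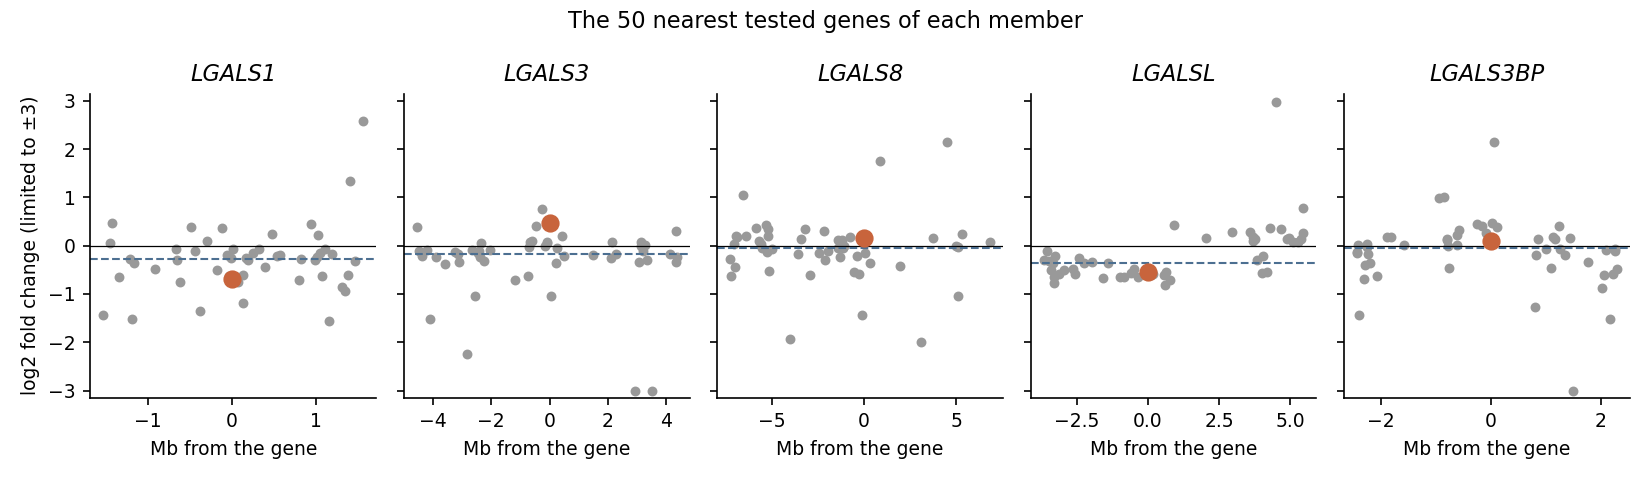
Log2 fold changes (vertical axis, values beyond ±3 drawn at the limit) of the 50 nearest tested genes of each member against their distance in megabases, with the member as a large point and the median of the 50 as a dashed line. LGALSL sits within a band of lower genes whose nearest 20 have a median of -0.58, and LGALS3 sits above 49 of its 50 neighbours.

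**Figure D4:**
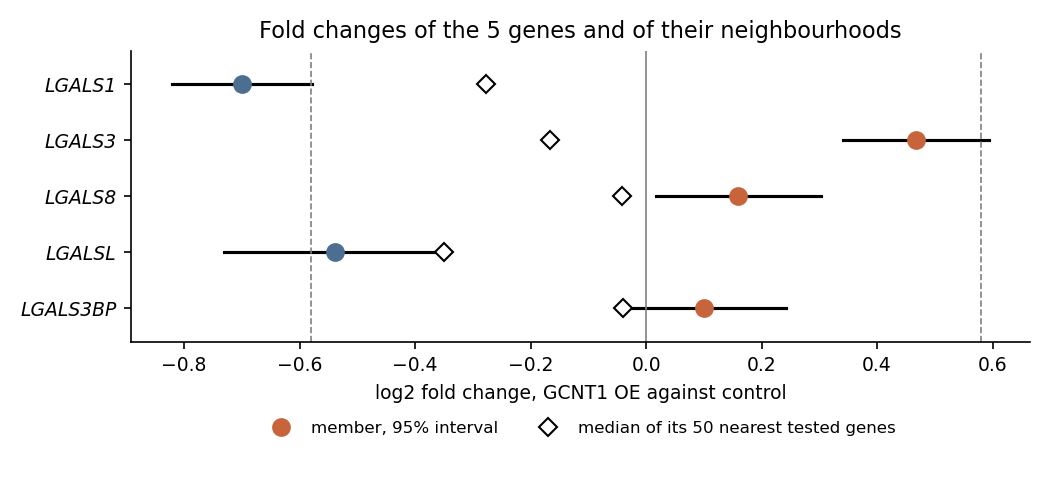
Log2 fold change of each of the 5 genes with its 95% interval (line), and the median of its 50 nearest tested genes (open diamond). Dashed lines mark -0.58 and 0.58, and only LGALS1, at -0.70, lies beyond them.

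Glycoproteins that galectins bind at the surface and in the matrix were taken from a list of 28 genes, of which 25 were tested. The called genes were 2 of 25, both lower, which is 8% against 19.3% of all genes. ITGA1, the integrin α1 chain, had counts of 389, 355 and 280 in controls against 9, 18 and 19 in GCNT1 OE cells (log2 fold change -4.56, SE 0.18, edgeR adjusted p = 2.22e-10). Its 50 nearest genes had a median of -0.47. FN1, fibronectin, fell from 1247 ± 65.2 to 525 ± 48.4 CPM (SD, n = 3 each; log2 fold change -1.25, SE 0.06, edgeR adjusted p = 3.46e-09). With the adjusted p alone 9 genes were higher and 9 lower (72.0% of the list, against 57.6% of all genes), and the median over the list was -0.02.

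Several of the best known ligands were chosen for mention after their values were seen. The lysosomal membrane protein LAMP1 was higher (log2 fold change 0.29, edgeR adjusted p = 7.49e-05), and LAMP2 was not past the threshold (0.08, adjusted p = 0.176). Basigin (BSG, 0.35), the CD98 heavy chain (SLC3A2, 0.46) and neuropilin-1 (NRP1, 0.49) were higher, with adjusted p values from edgeR's test of 0.000212, 1.45e-05 and 5.00e-06. The laminin chains LAMB1 (-0.37) and LAMC1 (-0.26) were lower and LAMA5 (0.25) was higher, all past the adjusted p but not the fold change threshold. ITGA6 (-0.50), MCAM (-0.26), PTPRF (-0.20), CD47 (-0.17) and TFRC (-0.15) were also lower. ITGA3 (0.26), ITGA5 (0.21), THBS1 (0.41) and CDH2 (0.38) were also higher, and all of these passed the adjusted p only. For CD44 the log2 fold change was -0.02 and for the integrin β1 chain ITGB1 it was 0.02, with adjusted p values of 0.701 and 0.757 from edgeR's test.

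Partners of galectins inside the cell made a list of 12 genes, of which 11 were tested and 3 were called (27.3%, against 19.3% of all genes). TRIM5, a tripartite motif protein, rose from 36.4 ± 2.77 to 56.5 ± 1.92 CPM (log2 fold change 0.63, edgeR adjusted p = 4.67e-06). BCL2, the apoptosis inhibitor, rose from 5.18 ± 1.19 to 8.69 ± 0.80 CPM (0.74, edgeR adjusted p = 0.00130). ATG16L1, an autophagy protein, fell from 93.2 ± 6.23 to 61.2 ± 2.49 CPM (-0.61, edgeR adjusted p = 3.39e-06), where its 50 nearest genes had a median of -0.65. With library size in place of TMM factors, and the shift of all genes that this brings, ATG16L1 had -0.55, and without control replicate 2 and without GCNT1 OE replicate 2 it had -0.55 and -0.57, under the fold change threshold. CALCOCO2, the autophagy receptor that galectin-8 recruits to damaged vesicles, was at -0.05 on the log2 scale (edgeR adjusted p = 0.407), and TRIM16, a partner of galectin-3, was at 0.39 (edgeR adjusted p = 0.00936). CALCOCO2 and TRIM16 were not called, and were chosen for mention with their values known. The median over the list was 0.07.

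Enzymes that build or cap the chains galectins bind made a list of 27 genes, of which 26 were tested. The called genes were 5 of 26 (19.2%), 2 higher and 3 lower, against 19.3% of all genes. With the adjusted p alone 9 were higher and 11 lower (76.9% of the list, against 57.6% of all genes), and the median log2 fold change was -0.05. ST3GAL1, which caps the galactose of core 1 O-glycans with sialic acid, fell from 702, 728 and 692 CPM in controls to 160, 180 and 175 CPM in GCNT1 OE cells (-2.04, SE 0.05, edgeR adjusted p = 4.08e-12). MGAT4A, a branching enzyme of N-glycans, had a count of 108 in each control against 6, 11 and 5 in GCNT1 OE cells (-3.95, edgeR adjusted p = 6.49e-09). B3GNT7, an enzyme that extends lactosamine chains, had counts of 42, 35 and 34 in controls against 1, 3 and 5 in GCNT1 OE cells (-3.67, edgeR adjusted p = 9.80e-07), and its 50 nearest genes had a median of -0.60. GCNT3, a core 2 and core 4 branching enzyme, had counts of 26, 21 and 14 in controls against 62, 97 and 87 in GCNT1 OE cells (1.91, edgeR adjusted p = 4.26e-06). GCNT1 itself was the other called rise. With a filter of at least 10 counts in every library, which leaves out MGAT4A, B3GNT7 and ITGA1 for their low counts in GCNT1 OE cells and GCNT1 for its low counts in controls, 2 of the enzymes and 1 of the surface ligands were called. Of all 12045 genes tested with that filter 1980 were called.

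Further enzymes were chosen for mention after their values were seen. MGAT5, which makes the N-glycan branch that galectin-3 favours, was at 0.45 on the log2 scale (SE 0.06, edgeR adjusted p = 4.04e-05). B4GALT1, a galactosyltransferase that makes lactosamine, had 0.38 and C1GALT1C1, the chaperone of the core 1 synthase, had 0.51, both past the adjusted p only. Of the same family as B4GALT1, B4GALT5 had 0.26 and B4GALT2 -0.20, again past the adjusted p only, and B4GALT3 and B4GALT4 did not pass it. B3GNT3 had 0.52 and passed the adjusted p only. ST6GAL1, whose α2,6-linked sialic acid blocks galectin-1 binding, had -0.23 (edgeR adjusted p = 0.0190), and B3GNT2, the main enzyme of lactosamine repeats, had -0.36 (edgeR adjusted p = 0.00500), with a median of -0.52 over its 50 nearest genes.

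**Figure D5:**
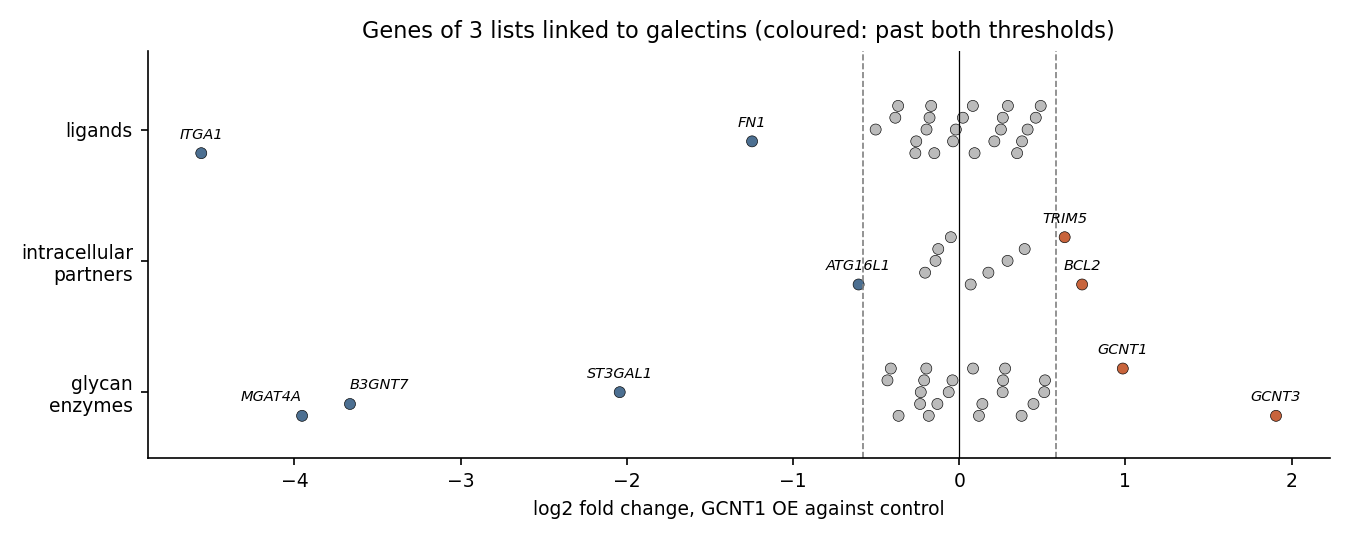
Log2 fold change (horizontal axis) of the tested genes of 3 lists, with 25 surface and matrix ligands, 11 intracellular partners and 26 glycan enzymes; each point is a gene, spread vertically for reading. Coloured and named points passed both thresholds (dashed lines at -0.58 and 0.58): ITGA1, FN1, ATG16L1, MGAT4A, B3GNT7 and ST3GAL1 lower, TRIM5, BCL2, GCNT1 and GCNT3 higher.

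Markers of the line and of other cell types were read beside these results. The keratins KRT8 (222 ± 7.77 CPM in controls, SD, n = 3) and KRT18 (253 ± 7.94), and vimentin (VIM, 1127 ± 37.2), were present. None of 6 leukocyte markers was among the genes analysed. Of 6 fibroblast markers the collagens COL1A1 and COL3A1 were, with a summed level of 126 to 178 CPM in controls and 43.0 to 46.7 CPM in GCNT1 OE cells, and DCN, LUM, PDGFRB and THY1 were not. Of 4 endothelial markers PECAM1 and KDR were, with a sum of 148 to 166 CPM and of 47.7 to 63.4 CPM, and CDH5 and VWF were not. Within that sum KDR was lower (log2 fold change -1.53) and PECAM1, at 1.77 ± 0.29 CPM in controls, was higher (1.31). Of 4 neuroendocrine markers SYP and ENO2 were, with a sum of 195 to 203 CPM and of 137 to 144 CPM. The keratins and EPCAM summed to 818 to 866 CPM and to 625 to 709 CPM. Most of that difference came from KRT19, which fell from 369 ± 17.8 to 230 ± 15.9 CPM (log2 fold change -0.68), while KRT18 was at -0.18, KRT8 at -0.14 (edgeR adjusted p = 0.0829) and EPCAM at 0.09 (edgeR adjusted p = 0.645). VIM and CD44 summed to 1581 to 1661 CPM and to 1831 to 1946 CPM, with VIM at 0.30 and CD44 at -0.02 on the log2 scale. All of these sums but that of VIM and CD44 were lower in GCNT1 OE cells, as LGALS1 was, and their part in its change was not tested. In bulk RNA, fewer cells of a type and less RNA per cell cannot be told apart.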

How the data were processed

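RNA-seq libraries of 3 control and 3 GCNT1 OE PC3 lines were analysed, with groups taken from the sample labels. The authors used Cutadapt to trim the single-end reads, HISAT2 for alignment to hg38 and featureCounts to count reads, and they deposited raw counts per gene without normalization or pooling. The gene annotation and strand setting are not given in the sources used here. For the tests, edgeR 4.0.16 was run under R 4.3.3 (low counts filtered by filterByExpr, which kept all 12703 genes, TMM factors, glmQLFit and glmQLFTest, no covariates), with Benjamini-Hochberg adjustment over all genes and the thresholds of the study (adjusted p of 0.05, absolute log2 fold change of 0.58). Intervals are 95% intervals from the same fit. Libraries of a group differed by more than sampling noise (chi-square per degree of freedom 1.65 to 5.65). A count of 3 equals 0.213 to 0.259 CPM at these depths, which covers counting error only. Symbols and positions came from RefSeq (GRCh38.p14, 12661 of 12703 identifiers matched), and transcript lengths and overlaps from GENCODE 44.

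Within-library ratios were tested with exact permutation tests in SciPy 1.17.1. The alternatives were limma-voom (limma 3.58.1), DESeq2 1.42.0, scaling by RLE factors or by library size alone, omitting the filter or asking for 10 counts in every library, a block on replicate number, edgeR's glmTreat, each library left out in turn and fold changes relative to the 50 nearest genes. The 20 nearest genes and the union exon length were added after the data were seen. On simulated counts of 12703 genes for this comparison edgeR recovered 78% of 100 genes changed 1.5-fold and 98% of 100 changed 2-fold. Recovery was counted with the adjusted p alone, without the fold change threshold, and 13 of 189 calls were false. Only genes above a minimum mean count were changed in the simulation, and far fewer than passed the adjusted p in the data. Named genes were the members, other galectins in the table, GCNT1, up to 8 called genes of each list by smallest p, and the 3 genes with the most similar profile to each member. Further genes of the lists, neighbours and markers were named outside this rule. The members and lists were chosen with earlier results of these data known. The values of 1 marker list are not reported here.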

Additional observations from a re-analysis of the deposited data

How the results depend on the processing

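LGALS1, LGALS3 and LGALSL kept their direction and an adjusted p under 0.05 in each of the 12 alternative fits other than glmTreat, with log2 fold changes from -0.76 to -0.64, from 0.42 to 0.52 and from -0.61 to -0.48. Omitting the filter gave the same fit again, since every gene had passed it, and is not counted. Over the same fits LGALS8 ranged from 0.13 to 0.22 (adjusted p 0.0136 to 0.173) and LGALS3BP from 0.02 to 0.16 (adjusted p 0.0472 to 0.733). With each library left out in turn LGALSL ranged from -0.61 to -0.49, the members called from 1 to 2, the genes called from 2409 to 2511 and the glycan enzymes called from 4 to 6. LGALSL was past the fold change threshold without control replicate 2.

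Against the threshold fold itself (edgeR's glmTreat), LGALS1 was no longer called, with an adjusted p of 0.0599 at the log2 fold change of -0.70 that this test takes over from the same fit. By that test 1392 genes, 0 members (1 of 5 at an unadjusted p under 0.05) and 0 intracellular partners (0 of 11 at an unadjusted p under 0.05, smallest 0.0579) were called; it asks for more than the 2 thresholds apart. With at least 10 counts in every library 1 surface ligand and 2 glycan enzymes were called, because that filter removes ITGA1, MGAT4A and B3GNT7, which fell, and GCNT1, whose control counts were low. It left 12045 genes, of which 1980 were called. Relative to the median of the 50 nearest genes the values were -0.42 for LGALS1, 0.63 for LGALS3 and -0.19 for LGALSL, and relative to the 20 nearest genes, a set chosen after seeing the data, -0.454, 0.51 and 0.0423, with 0.314 for LGALS8 and -0.0783 for LGALS3BP. The sign of LGALSL and of LGALS3BP changed there, and neither was called. The difference in the share of LGALS1 among the galectins was -7.77 percentage points, -12.5 without division by length and -7.11 with union exon lengths. GCNT1 had an adjusted p over 0.05 under DESeq2 (0.0821), and without control replicate 1, control replicate 3 or GCNT1 OE replicate 3 (log2 fold change 0.49 without the last).

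When replicate number entered as a block (replicate block), log2 fold changes were -0.70 for LGALS1, 0.47 for LGALS3, 0.16 for LGALS8, -0.54 for LGALSL and 0.10 for LGALS3BP, no member's call changed, and 2423 genes were called against 2457. The deviations of same-numbered libraries had correlations of -0.239, -0.0106 and -0.0923 across genes. Between control and GCNT1 OE libraries with unlike numbers the correlations ranged from -0.163 to 0.224. A shared number thus did not go with more similar libraries.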

Other observations

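The genes whose centred log2 CPM over the 6 libraries differed least from each member were listed as a description, without a test and with nothing said of shared function. For LGALS1 they were SERINC2, BCKDK and EPHB2, with root mean square differences of 0.03 (log2) in each case and log2 fold changes of -0.74, -0.69 and -0.68. For LGALS3 they were AIFM1, MPPE1 and UCHL3, with differences of 0.02 in each case and log2 fold changes of 0.49, 0.44 and 0.48. For LGALS8 they were CBLL1, NUCB2 and BAZ1B (log2 fold changes 0.16, 0.14 and 0.13), and for LGALS3BP they were BCL7B, DTNBP1 and LRRC8E (0.09, 0.10 and 0.09). For LGALSL they were TMC5, IRF2BPL and NIPSNAP1 (-0.54, -0.51 and -0.53), with differences of 0.03, 0.05 and 0.05, and none of these 3 lies on chromosome 2.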
